A study of Mus musculus with 24 samples.

Results

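The genes described here are 7 members of the family of regulators of G protein signalling (RGS) that are known from brain: Rgs2, Rgs4, Rgs7, Rgs8, Rgs10, Rgs14 and Rgs16. They were taken from the deposited array table by gene symbol, with the probe set of highest mean signal per gene, and make up 7 of the 19505 genes named on the array. Each of the 7 had 1 probe set. RNA came from male C57Bl/6j mice aged 8 to 10 weeks with no transgene or other genetic change named in the labels. In 8 mice the middle cerebral artery was blocked unilaterally by a filament inside the vessel for 90 min, a stroke model abbreviated MCAO, and the brain was taken after 30 min of reperfusion, 2 h from onset. The other 4 mice had sham surgery as controls and reached the same endpoint. All animals were perfused with cold saline, and each hemisphere, on the operated side (ipsilateral) or the opposite side (contralateral), gave 1 array, so that the 24 arrays fall into groups of 8, 8, 4 and 4. A hemisphere holds ischaemic and spared tissue, cortex and deep structures together, which limits what any value says about one region.

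G protein-coupled receptors act by loading the alpha subunit of a G protein with GTP, and the signal ends when the alpha subunit hydrolyses it. RGS proteins bind the loaded alpha subunit and speed up that hydrolysis, which shortens the signal. Most members act on the Gi/o class, Rgs2 prefers Gq, and in neurons transcription of Rgs2 is known to respond quickly to synaptic activity and to cAMP. The set was chosen by gene symbol around Rgs2, and Rgs2 itself was selected on its measured side difference after MCAO, so its values in comparisons that use the occluded hemisphere are a description and carry no test. The other 6 genes were tested in every comparison.

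The promoter sequences of Rgs2, Rgs4 and Rgs16 are shown because these were the 3 members whose ipsilateral signals did not overlap between MCAO and sham mice once 4 unlike arrays, described below, were set aside. On the arrays left, 1.4% of all probe sets had MCAO signals wholly above sham. Over all arrays the groups overlapped for each of the 3 genes, and Rgs2 was known beforehand. Each sequence is the 250 bases before the annotated start in RefSeq (GRCm38.p6), printed 5′ to 3′ on the gene's strand, and capitals mark the core of the cAMP response element, TGACG or its reverse complement CGTCA. Rgs2 lies at chr1:144004150-144004399 (minus strand), Rgs4 at chr1:169747643-169747892 (minus strand) and Rgs16 at chr1:153740103-153740352 (plus strand).
Rgs2: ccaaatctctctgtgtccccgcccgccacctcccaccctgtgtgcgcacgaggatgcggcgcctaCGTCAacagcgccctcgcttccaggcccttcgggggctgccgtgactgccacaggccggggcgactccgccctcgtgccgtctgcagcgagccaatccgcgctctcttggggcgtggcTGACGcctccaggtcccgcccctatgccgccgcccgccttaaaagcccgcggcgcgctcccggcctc
Rgs4: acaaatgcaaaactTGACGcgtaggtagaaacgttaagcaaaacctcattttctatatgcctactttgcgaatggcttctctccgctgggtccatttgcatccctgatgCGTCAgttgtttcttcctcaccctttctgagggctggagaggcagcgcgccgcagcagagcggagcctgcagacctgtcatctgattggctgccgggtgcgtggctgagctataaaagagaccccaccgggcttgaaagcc
Rgs16: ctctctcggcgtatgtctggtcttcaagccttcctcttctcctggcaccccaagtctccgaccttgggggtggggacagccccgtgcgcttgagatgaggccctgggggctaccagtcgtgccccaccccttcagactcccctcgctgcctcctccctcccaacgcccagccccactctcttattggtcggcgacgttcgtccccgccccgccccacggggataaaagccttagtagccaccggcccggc

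The Rgs2 window held the core 2 times, beginning 185 bases before the start on the reverse strand and 67 bases before it on the forward strand. The Rgs4 window also held it 2 times, at 236 bases on the forward strand and 141 bases on the reverse strand, and had a TATAAA box 31 bases before the start. No TGACG or CGTCA was found in the Rgs16 window, and the windows of Rgs7 and Rgs10 held 0 as well. Rgs8 had 3 annotated starts, of which 1 window held the core, 46 bases before the start. Among 32851 windows of the same length over all genes, 17.8% held the core at least once on either strand, 3.90% held it 2 or more times, 12.4% held TATAAA and 33.8% held CCAAT, a box found in the Rgs2, Rgs4 and Rgs16 windows and in 2 of the Rgs8 windows. The full palindrome TGACGTCA, which contains the core and occurred in 1.55% of windows, was found in 0 windows of these genes. These are matches of letters, which do not show binding of any factor. Of the 7 genes 6 were matched to the promoter table. Rgs2, Rgs4, Rgs7, Rgs8 and Rgs16 all lie on chromosome 1, where Rgs8 and Rgs16 are direct neighbours among protein-coding genes, Rgs13 follows Rgs2 and Rgs5 precedes Rgs4. Rgs10 lies on chromosome 7 and Rgs14 on chromosome 13.

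Values are log2 probe-set signals as deposited, and a level of one probe set cannot be set against that of another. Among the 24 arrays, 20 were alike, with a median correlation to one another of 0.981 to 0.989 across probe sets, and 6 or 7 of the 7 genes were above the background of the array, taken as the 95th percentile of its negative controls. Both hemispheres of MCAO mouse 3 and both of sham mouse 1 gave arrays unlike the rest: these 4 correlated with those 20 at 0.328 to 0.55, had a background of 7.41 to 7.61 against 5.17 to 5.74, and had 0 or 1 of the 7 genes above it. Differences are therefore given over all arrays and again without these 4, which leaves 7 MCAO and 3 sham mice. Pan-neuronal markers marked the tissue as brain, with 10 of 10 measured and a mean signal between 9.65 and 9.97 on the 20 arrays.

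Rgs2, which limits Gq signalling, was higher in the ipsilateral than in the contralateral hemisphere of all 8 MCAO mice. Its signal there ran from 7.07 to 10.15 with a median of 9.55, against 4.26 to 9.41 with a median of 7.91 on the contralateral side. In sham mice 1 to 4 it was 4.64, 7.79, 7.79 and 7.65 ipsilaterally and 4.88, 7.94, 8.21 and 7.42 contralaterally. The lowest value of every group came from a mouse that stood apart, and apart from those the sham signals lay between 7.42 and 8.21 on both sides.

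**Figure D1:**
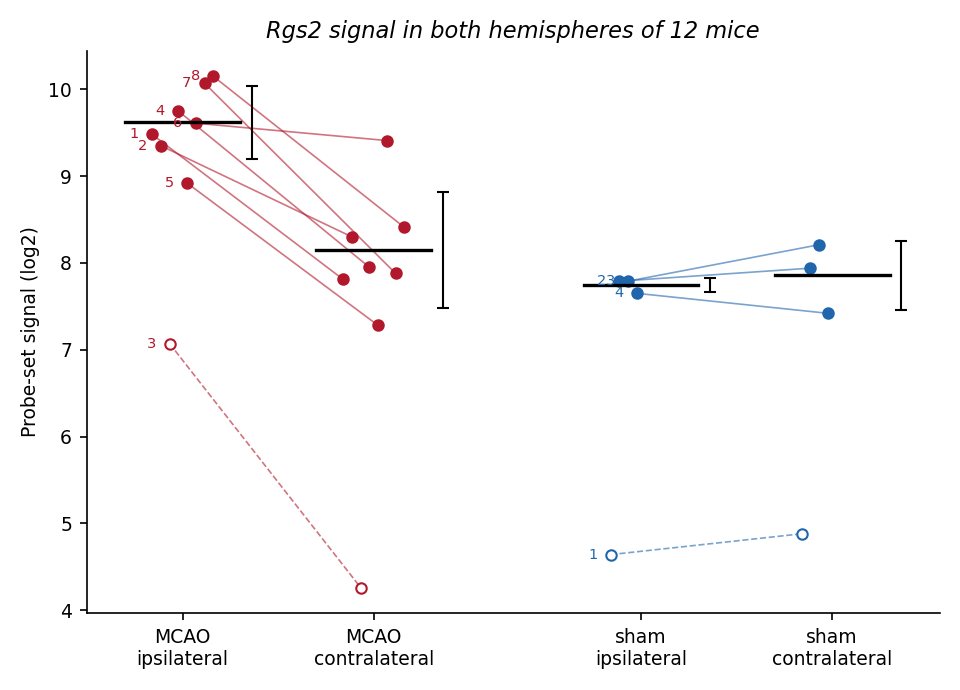
Rgs2 signal (log2, vertical axis) on each of the 24 arrays, by group. Lines join the 2 hemispheres of a mouse, numbers are mouse numbers, open points with dashed lines are MCAO mouse 3 and sham mouse 1, and the black bar with its error bar is the mean and SD over the remaining arrays. The MCAO ipsilateral points, at 8.92 to 10.15 on those arrays, lie above all sham points.

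The side difference of Rgs2, ipsilateral minus contralateral, was 1.67, 1.05, 2.81, 1.80, 1.64, 0.20, 2.19 and 1.74 in MCAO mice 1 to 8. In sham mice 1 to 4 it was −0.24, −0.15, −0.42 and 0.23. MCAO mouse 6 had almost no side difference, and this came from a contralateral signal of 9.41, the highest of its group, beside an ordinary ipsilateral signal of 9.61. The mean signal of 15 early genes regulated by the transcription factor CREB, a list that includes Fos and Npas4, was also high in that contralateral hemisphere, at 8.13, against 6.72 to 7.59 in the contralateral hemispheres of the other MCAO mice among the 20 arrays and 6.57 to 6.66 in sham mice. Whether the 2 have a common source was not tested.

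The mean side difference of Rgs2 after MCAO was 1.64 ± 0.20 in 8 mice (SE of the limma fit), a 3.11-fold excess, and 1.47 ± 0.19 without the 4 arrays. That SE draws on a spread shared with the sham mice and other probe sets. The value of 1.64 and its fold include MCAO mouse 3, whose difference was the greatest, 2.81. Both Rgs2 signals of that mouse were under the background of their arrays. The SD of the side difference was 0.77 between the 8 MCAO mice and 0.65 between the 7 left without the 4 arrays. Against the ipsilateral hemisphere of sham mice the difference was 2.33 ± 0.66 over all arrays and 1.88 ± 0.22 without the 4. These sizes describe a gene that was chosen for its side difference after MCAO and test nothing. The ipsilateral groups of MCAO and sham mice overlapped over all arrays and did not overlap on the 20. The side difference after MCAO exceeded that after sham surgery by 1.78 ± 0.35 over all arrays and by 1.58 ± 0.34 without the 4. Since a whole hemisphere was sampled, fewer cells of a type and less RNA per cell cannot be told apart here, nor can more cells and more RNA per cell, for Rgs2 or any gene below.

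The 2 Rgs2 comparisons that do not use the occluded hemisphere were tested. The contralateral MCAO arrays were part of the contrast on which Rgs2 was chosen, so only the sham comparison is free of that choice. The contralateral p of Rgs2 is therefore no independent test, and no conclusion is drawn from it. In sham mice the side difference was −0.14 ± 0.29 (limma, adjusted p = 0.89), and −0.11 ± 0.29 without the 4 arrays (adjusted p = 0.999). In the contralateral hemisphere Rgs2 was 0.55 ± 0.84 above sham over all arrays (limma, adjusted p = 0.997) and 0.29 ± 0.33 without the 4, with an interval of −0.42 to 1.01. On the 20 arrays the group means of Rgs2 ordered as sham ipsilateral (7.74 ± 0.08, SD, n = 3), sham contralateral (7.86 ± 0.40, n = 3), MCAO contralateral (8.15 ± 0.67, n = 7) and MCAO ipsilateral (9.62 ± 0.42, n = 7). The first 3 groups overlapped one another, and MCAO ipsilateral overlapped MCAO contralateral through mouse 6.

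Rgs4, a small RGS protein of neurons that acts on Gi/o and Gq, was higher in the ipsilateral hemisphere in all 8 MCAO mice, by 0.05 to 1.92 with a median of 0.26. Without the 4 arrays Rgs4 was higher in 7 of 7, by 0.05 to 1.00 with a median of 0.23. Its ipsilateral signal after MCAO ran from 7.47 to 9.92 (median 9.77) and its contralateral signal from 5.55 to 9.87 (median 9.45). The sham values of mice 1 to 4 were 7.70, 9.45, 8.92 and 9.44 ipsilaterally and 4.54, 9.35, 9.10 and 9.15 contralaterally. Both mice that stood apart were low on both sides, and the side difference of sham mouse 1 was 3.16, where sham mice 2 to 4 had 0.10, −0.18 and 0.29.

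The side difference of Rgs4 after MCAO was 0.55 ± 0.29 over all arrays and did not pass the test (limma, adjusted p = 0.94). Without the 4 arrays it was 0.36 ± 0.11 in 7 mice, with 7 of 7 mice higher ipsilaterally, an unadjusted limma p of 0.00814 and an adjusted p of 0.472. Within the 20 arrays the 7 MCAO ipsilateral values, 9.60 to 9.92, lay above the 3 sham ipsilateral values, 8.92 to 9.45. That difference was 0.50 ± 0.14 (limma, unadjusted p = 0.0032, adjusted p = 0.359), and over all arrays it was 0.61 ± 0.47 (adjusted p = 0.968) with overlapping groups.

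Rgs16, another small RGS protein acting on Gi/o and Gq, lay near background. On the 20 arrays its group means ordered as sham contralateral (5.62), sham ipsilateral (5.72), MCAO contralateral (5.96) and MCAO ipsilateral (6.25). It was above background on 7 of 8 arrays of each MCAO group but on 2 of 4 sham ipsilateral and 1 of 4 sham contralateral arrays, so its sham levels are close to bounds. Its ipsilateral signal after MCAO ran from 4.61 to 6.53 (median 6.23) and its contralateral signal from 3.63 to 6.22 (median 5.93). For sham mice 1 to 4 the signals were 4.06, 5.90, 5.49 and 5.77 ipsilaterally and 3.81, 5.72, 5.53 and 5.62 contralaterally.

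Rgs16 was higher ipsilaterally in 8 of 8 MCAO mice, by 0.11 to 0.98, and in 3 of 4 sham mice, by up to 0.25. Both upper ends came from the mice that stood apart, whose Rgs16 signals were under the background of their arrays. Without the 4 arrays Rgs16 was higher in 7 of 7 MCAO mice, by 0.11 to 0.68, and in 2 of 3 sham mice, by up to 0.18. The mean side difference after MCAO was 0.38 ± 0.12 over all arrays (limma, unadjusted p = 0.00608, adjusted p = 0.94) and 0.29 ± 0.08 without the 4 (unadjusted p = 0.00415, adjusted p = 0.404). Against sham the ipsilateral difference was 0.74 ± 0.41 over all arrays (limma, adjusted p = 0.968) and 0.54 ± 0.15 without the 4 (unadjusted p = 0.00345, adjusted p = 0.376), where the 7 MCAO values began at 5.95 and the 3 sham values ended at 5.90. In the contralateral hemisphere Rgs16 was 0.34 ± 0.14 above sham without the 4 arrays (limma, unadjusted p = 0.0316) and 0.50 ± 0.50 over all arrays (adjusted p = 0.997), and neither passed the adjusted threshold.

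**Figure D2:**
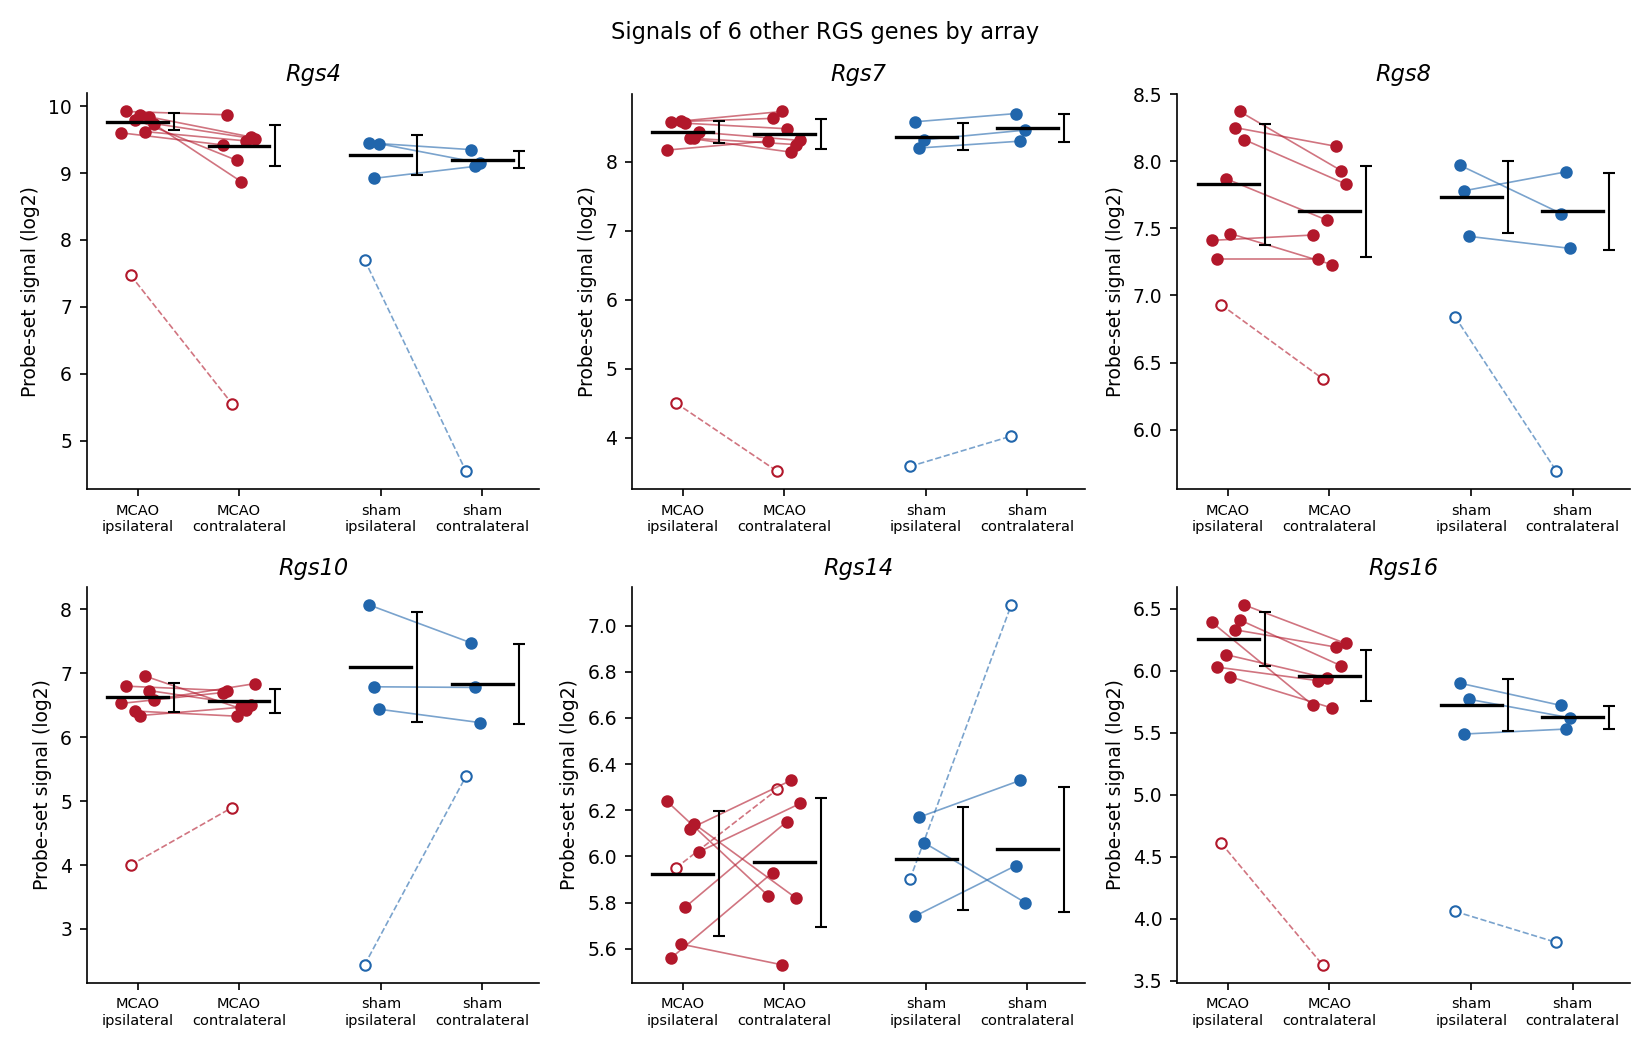
Signals (log2, vertical axes) of Rgs4, Rgs7, Rgs8, Rgs10, Rgs14 and Rgs16 on each array, 1 panel per gene with its own axis. Points, lines, bars and error bars are as in the plot of Rgs2 by array, with open points for MCAO mouse 3 and sham mouse 1. Filled MCAO ipsilateral points lie above filled sham ipsilateral points for Rgs4 and Rgs16, and the groups overlap for the other 4 genes.

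Of the 6 genes tested in the MCAO side comparison 0 passed the adjusted threshold in either array set. Rgs2 is not counted, since it was chosen on this contrast. Of all 22206 probe sets 0.0856% passed over all arrays and 0.135% without the 4. Higher in every MCAO mouse were 3 of the 7, Rgs2, Rgs4 and Rgs16, in both array sets, against 0.707% of probe sets over all arrays and 1.22% without the 4, and of these Rgs2 was known beforehand. Between the ipsilateral hemispheres 0 of the 6 tested genes passed in either array set, where 0.0045% of probe sets passed over all arrays and 0.149% without the 4. Of the same 6 genes 2, Rgs4 and Rgs16, had MCAO values wholly above sham on the 20 arrays, against 1.4% of probe sets, and 0 did so over all arrays, against 0.117%.

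**Figure D3:**
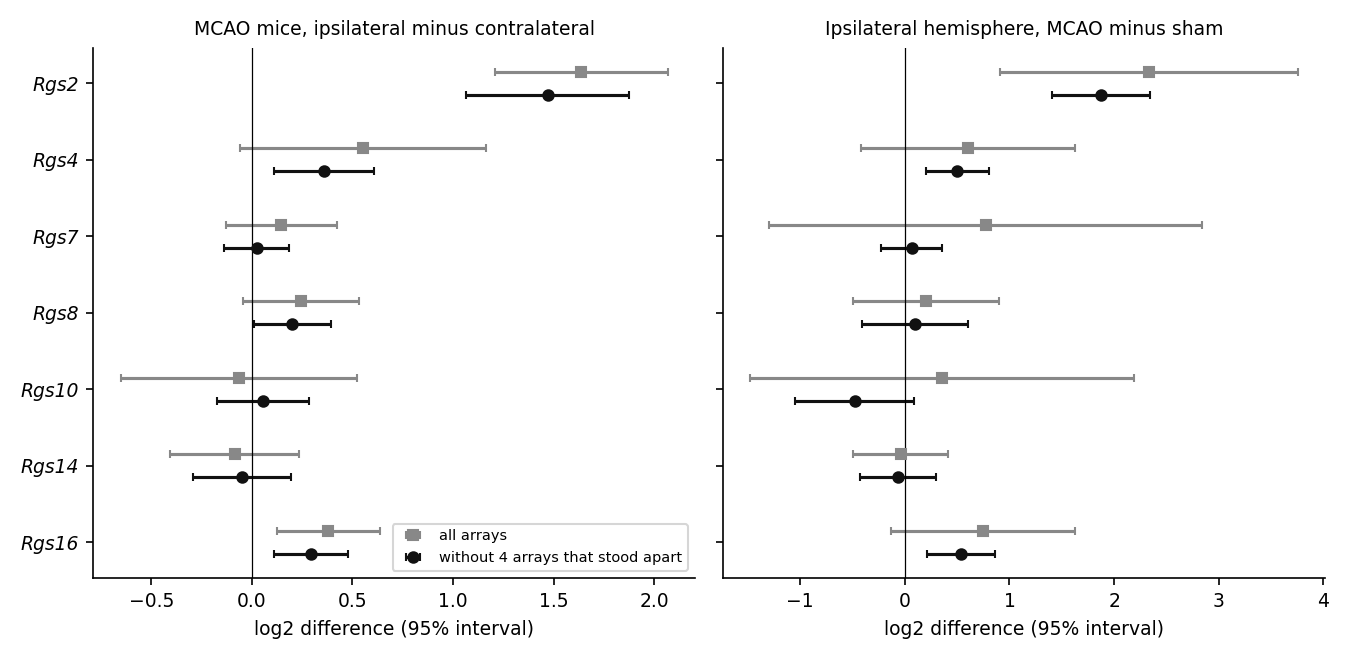
Log2 differences (horizontal axes) of the 7 genes with 95% intervals from limma, for ipsilateral minus contralateral in MCAO mice (left) and for MCAO minus sham in the ipsilateral hemisphere (right). Grey squares are all arrays and black circles are without the 4 arrays that stood apart. Without the 4 arrays the intervals of Rgs4 and Rgs16 lie above 0 in both panels and that of Rgs8 in the left one, and over all arrays that of Rgs16 does so in the left panel. The values and intervals of Rgs2, chosen on the left contrast, are a description in both panels and no test.

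Rgs8, a small RGS protein of the Gi/o class found in Purkinje cells and striatum, differed more between mice than between groups. After MCAO it ran from 6.93 to 8.37 ipsilaterally (median 7.66) and from 6.38 to 8.11 contralaterally (median 7.50). Sham mice 1 to 4 gave 6.84, 7.97, 7.78 and 7.44 ipsilaterally and 5.69, 7.61, 7.92 and 7.35 contralaterally. Its side difference after MCAO was 0.25 ± 0.14 over all arrays (limma, adjusted p = 0.94) and 0.20 ± 0.09 without the 4 (unadjusted p = 0.0397, adjusted p = 0.671), and the ipsilateral difference from sham was 0.21 ± 0.32 and 0.09 ± 0.24 (adjusted p = 0.968 and 0.956).

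The arrays with the lowest and with most of the highest Rgs8 signals lay at the same ends of the range for markers of striatal projection neurons, of which 8 of 10 were measured, each above background on at least 1 array of every group among the 20. MCAO mice 6, 7 and 8 had striatal marker means of 9.24 to 9.38 and Rgs8 at 7.83 to 8.37. MCAO mouse 2 had marker means of 7.77 and 7.75 with Rgs8 at 7.27 in both hemispheres. In MCAO mouse 5 the ipsilateral hemisphere had the higher marker mean, 8.30 against 7.47, and Rgs8 was 7.46 against 7.23. The log2 of the summed marker signal ran from 11.43 to 12.83 in MCAO ipsilateral arrays, 11.09 to 12.84 in MCAO contralateral, 12.33 to 12.70 in sham ipsilateral and 12.06 to 12.86 in sham contralateral arrays of the 20. Rgs9, the RGS protein most typical of striatum and itself one of these markers, likewise ran from 8.15 and 8.36 in MCAO mouse 2 to 10.15 and 10.03 in MCAO mouse 7. Arrays in between did not keep that order. Sham mouse 2 had an ipsilateral marker mean of 8.98 with Rgs8 at 7.97, above the 7.83 of the contralateral hemisphere of MCAO mouse 8, whose marker mean was 9.26. Ipsilateral marker means of 8.75 in sham mouse 4 and 8.69 in MCAO mouse 4 went with Rgs8 at 7.44 and 7.87. The part of striatal content in the Rgs8 values was not tested.

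**Figure D4:**
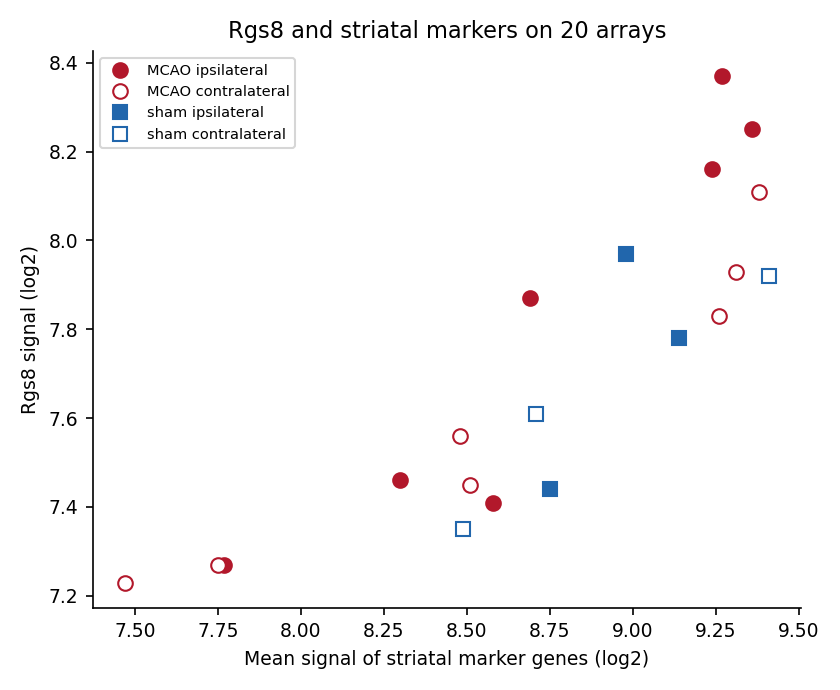
Rgs8 signal (log2, vertical axis) against the mean signal of 8 striatal marker genes (log2, horizontal axis) on the 20 arrays, by group. The arrays with marker means under 8 have Rgs8 at 7.27 or lower, and those of MCAO mice 6, 7 and 8, with means of 9.24 or more, have it at 7.83 or higher, while sham mouse 2 has 7.97 at a mean of 8.98.

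Rgs7, which works as an obligate pair with the G beta subunit Gnb5, held a nearly constant level on the 20 arrays. After MCAO it ran from 4.50 to 8.59 ipsilaterally (median 8.39) and from 3.51 to 8.73 contralaterally (median 8.31). Sham mice 1 to 4 had 3.58, 8.58, 8.20 and 8.32 ipsilaterally and 4.02, 8.70, 8.30 and 8.46 contralaterally. All 4 values under 5 came from the arrays that stood apart, and the other 20 lay between 8.14 and 8.73. Over all arrays its side difference after MCAO was 0.15 ± 0.13 and its ipsilateral difference from sham 0.77 ± 0.96 (limma, adjusted p = 0.94 and 0.968). Without the 4 arrays these were 0.02 (interval −0.14 to 0.18) and 0.07 (interval −0.22 to 0.35), with adjusted limma p of 0.979 and 0.945.

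Rgs10, which acts on Gi/o and in brain is known from microglia, was set apart by 1 sham mouse. In sham mice 1 to 4 it was 2.44, 8.07, 6.79 and 6.44 ipsilaterally and 5.39, 7.48, 6.78 and 6.23 contralaterally. After MCAO it ran from 4.00 to 6.96 ipsilaterally (median 6.56) and from 4.90 to 6.84 contralaterally (median 6.48). Sham mouse 2 was thus highest on both sides, while its microglial marker means were 5.92 and 6.00, within the 5.89 to 6.42 of the other 18 arrays among the 20.

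The ipsilateral difference of Rgs10 from sham was 0.36 ± 0.85 over all arrays and turned to −0.48 ± 0.27 without the 4 (limma, adjusted p = 0.968 and 0.719). Its side difference after MCAO was −0.07 ± 0.28 over all arrays and 0.05 ± 0.11 without the 4, with adjusted limma p of 0.982 and 0.966. Of 10 microglial markers 9 were measured, with a log2 summed signal of 9.55 to 9.96 in MCAO ipsilateral, 9.43 to 9.97 in MCAO contralateral, 9.49 to 9.77 in sham ipsilateral and 9.43 to 9.55 in sham contralateral arrays of the 20. Aif1 was above background on 0 of these 20 arrays, and Cx3cr1 on 0 of the sham arrays.

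Rgs14, which also binds Gi through a GoLoco motif and marks hippocampal area CA2, showed no consistent direction and lay near background. Its group means on the 20 arrays were 5.92 to 6.03, where array backgrounds were 5.17 to 5.74, so a small change may go unseen. After MCAO it ran from 5.56 to 6.24 ipsilaterally (median 5.99) and from 5.53 to 6.33 contralaterally (median 6.04). In sham mice 1 to 4 it was 5.90, 5.74, 6.17 and 6.06 ipsilaterally and 7.09, 5.96, 6.33 and 5.80 contralaterally. It was higher ipsilaterally in 3 of 8 MCAO mice, and its side difference was −0.09 ± 0.15 over all arrays and −0.05 ± 0.11 without the 4 (limma, adjusted p = 0.952 and 0.971). Of 8 markers of hippocampal CA1 and CA2, 7 were measured, with means of 6.54 to 6.98 on the 20 arrays, where Amigo2, Fibcd1 and Map3k15 were above background on 0.

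In the contralateral hemisphere, in sham mice between sides, and in the difference of side differences, 0 of the tested genes among the 7 passed the adjusted threshold with limma in either array set, and 0% of all probe sets passed there. At an unadjusted p under 0.05 the 6 genes other than Rgs2 gave 1 in the MCAO side comparison over all arrays, Rgs16, where 4.13% of probe sets passed, and 3 without the 4 arrays, Rgs4, Rgs8 and Rgs16, where 7.1% passed. Between ipsilateral hemispheres they gave 0 over all arrays (1.01% of probe sets) and 2 without the 4, Rgs4 and Rgs16 (7.48%). All 7 genes were tested in the contralateral comparison, Rgs2 under the limit given above, with 0 over all arrays (0.365%) and 1 without the 4, Rgs16 (4.59%). Between sides in sham mice they gave 0 in both array sets (6.26% and 5.49%), and for the difference of side differences 0 of 6 did so (5.12% and 5.91%). For Rgs4 and Rgs16 the side difference after MCAO exceeded that after sham surgery by 0.29 ± 0.21 and 0.20 ± 0.15 without the 4 arrays (limma, adjusted p = 0.913 and 0.921), and over all arrays the value of Rgs4 was −0.29 ± 0.50. These genes are therefore not shown to differ between sides by another amount after occlusion than after sham surgery.

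The rest of the RGS system passed no test. Of 18 other genes with an RGS domain 18 were measured, and 0 rose or fell in any of the 5 comparisons in either array set. Their median side difference after MCAO was −0.01 over all arrays, with 8 of 18 above 0, and 0.08 without the 4, with 12 of 18 above 0. The 7 genes had medians of 0.25 and 0.20, and all probe sets −0.00 in both array sets. At an unadjusted p under 0.05, 0 of the 18 passed in that comparison over all arrays (4.13% of probe sets) and 1 without the 4 (7.1%). Between ipsilateral hemispheres 0 and 2 did (1.01% and 7.48% of probe sets), and contralaterally 0 and 1 (0.365% and 4.59%). Between sides in sham mice 3 of the 18 passed over all arrays and 0 without the 4 (6.26% and 5.49%), and for the difference of side differences 2 and 0 (5.12% and 5.91%). Rgs6, a relative of Rgs7, was the member of this list whose MCAO ipsilateral signals (7.97 to 8.13) lay above the sham ones (7.53 to 7.85) among the 20 arrays, by 0.30 ± 0.12 (limma, unadjusted p = 0.0223, adjusted p = 0.599). Among all probe sets 1.4% lay wholly above sham in this way on those arrays. Over all arrays the Rgs6 groups overlapped and the difference was 0.65 ± 0.51 (limma, adjusted p = 0.968). Rgs1, known from leukocytes, was above background on 0 of those 20 arrays, so no difference is given for it. Rgs5, the neighbour of Rgs4 and a pericyte gene, had a side difference after MCAO of −0.06 ± 0.16 over all arrays, which turned to 0.10 ± 0.10 without the 4 (limma, adjusted p = 0.971 and 0.922).

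Among the partners of RGS proteins the counts were also 0 in each direction in all 5 comparisons and both array sets. These were 13 of 13 G alpha subunits, 14 of 15 G beta and gamma subunits, 10 of 10 binding partners of RGS proteins, 9 of 12 effectors of Gq, 15 of 16 effectors of Gi and Gs, and 5 of 7 receptor kinases and arrestins. The smallest p of the alpha subunits between ipsilateral hemispheres without the 4 arrays was that of Gnai3, higher by 0.54 ± 0.16 (limma, unadjusted p = 0.00412, adjusted p = 0.387) and above background on 1 of 4 sham ipsilateral arrays. Over all arrays Gnai3 was higher there by 0.87 ± 0.55 (limma, adjusted p = 0.968). In the side comparison after MCAO it was Ric8b, a chaperone of alpha subunits, that had the smallest p among the binding partners, at 0.25 ± 0.07 without the 4 arrays (limma, unadjusted p = 0.00512, adjusted p = 0.427) and 0.23 ± 0.22 over all arrays (adjusted p = 0.94). Over all arrays 0 genes of these lists passed an unadjusted limma p under 0.05 in either comparison. Without the 4 arrays Ric8b alone did so between sides, and Gnai3, Gpsm2, Gng11 and Adcy7 between ipsilateral hemispheres. Gng11 and Adcy7 were above background on 0 of the 24 arrays, and Gpsm2 on 0 of 4 sham ipsilateral arrays. At that unadjusted p 4.13% of all probe sets passed between sides and 1.01% between ipsilateral hemispheres over all arrays. Without the 4 arrays these shares were 7.1% and 7.48%. The medians of the 6 lists in the side comparison ran from 0.01 to 0.12 over all arrays and from −0.05 to 0.03 without the 4.

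The list of CREB-regulated early genes, 15 of 16 measured, gave 7 genes higher and 0 lower in the ipsilateral hemisphere of MCAO mice over all arrays, with a list median of 0.86, where 0.0856% of all probe sets passed. Without the 4 arrays the list gave 8 higher and 0 lower, with a list median of 0.93, beside 0.135% of all probe sets. This list was chosen with earlier results of these data known, so its counts and p-values are a description and no independent test. Npas4, an activity-dependent transcription factor of neurons, rose by 2.36 ± 0.41 over all arrays (limma, adjusted p = 0.0276). Fos rose by 1.83 ± 0.28 and Fosb by 1.68 ± 0.26, both subunits of AP-1 with an adjusted limma p of 0.00885. In the MCAO contralateral group Npas4 was above background on 5 of 8 arrays and Fos on 6, so their levels there are close to bounds. Between ipsilateral hemispheres the list gave 0 calls over all arrays and 8 higher without the 4, with list medians of 1.73 and 1.69, beside 0.0045% and 0.149% of all probe sets. Without the 4, Fosb exceeded sham by 2.57 ± 0.24 there (limma, adjusted p = 7.28e-05), and over all arrays by 2.18 ± 0.45 (adjusted p = 0.696). Fos and Npas4 passed as well without the 4, but in the sham ipsilateral group Fos was above background on 1 of 4 arrays and Npas4 on 0, so no size is given for them. In the contralateral hemisphere the list gave 0 calls, with medians of 0.72 and 0.62. At an unadjusted limma p under 0.05 it gave 2 of 15 genes over all arrays and 8 of 15 without the 4. Of all probe sets 0.365% and 4.59% did so. Rgs2 had values of 0.55 and 0.29 in that hemisphere. These contrasts share arrays, so their values stand side by side only.

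Genes whose side difference ran most like that of Rgs2 were ranked by Pearson correlation across mice among 19504 other genes, as a description. The mice share a surgery, a platform and, for 2 of them, unlike arrays, and MCAO and sham mice fell apart, so that r carries both that gap and the order within it. Over the 10 mice without the unlike arrays the 6 highest were Fosb (0.97), Junb (0.96), Fos (0.96), Btg2 (0.95), Nr4a1 (0.95) and Ptgs2 (0.95), and the 3 lowest were Ccndbp1 (−0.95), Shisa6 (−0.93) and Olfr847 (−0.91). Over all 12 mice the 6 highest were Dusp6 (0.93), Atf5 (0.92), Ctnnd1 (0.91), Ptgs2 (0.90), Lonrf3 (0.88) and Toporsl (0.87), and the 3 lowest were Csrp2 (−0.89), Klk1b21 (−0.89) and 1700015G11Rik (−0.88). Ptgs2 was the one gene in both sets of 6. Of all genes named for likeness to a member, Atf5, Lonrf3, Toporsl, Klk1b21, 1700015G11Rik, Olfr847, Vmn2r83 and Gp6 had mean signals of 1.64 to 4.83, under the lowest array background of 5.17.

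In MCAO mouse 6 the side difference was 0.48 for Fosb, 0.53 for Junb, 0.13 for Ptgs2 and 0.27 for Dusp6, the lowest or next to lowest of each gene's 8 MCAO values, as for Rgs2 at 0.20. In MCAO mouse 3 Rgs2 had its greatest difference, 2.81, with Ptgs2 at 3.39 and Dusp6 at 2.26, while Fosb was at −0.18 and Junb at 0.34. Mouse 3 is the MCAO mouse whose arrays stood apart, and both of its Rgs2 signals, 7.07 and 4.26, were under the background of their array.

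**Figure D5:**
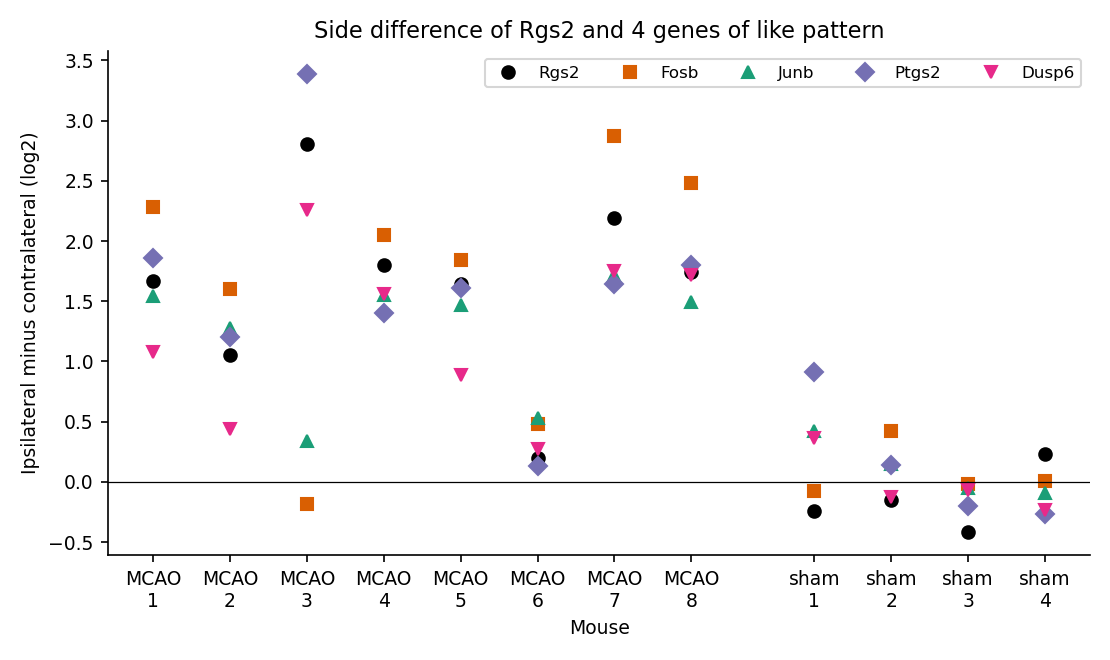
Ipsilateral minus contralateral log2 signal (vertical axis) of Rgs2, Fosb, Junb, Ptgs2 and Dusp6 in each of the 12 mice (horizontal axis). Points of the 5 genes lie between 0.13 and 0.53 in MCAO mouse 6 and between −0.42 and 0.42 in sham mice 2 to 4, between 0.44 and 2.87 in MCAO mice 1, 2, 4, 5, 7 and 8, and spread from −0.18 to 3.39 in MCAO mouse 3.

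The other members resembled Rgs2 less. Over the 10 mice r with Rgs2 was 0.67 for Rgs16, 0.57 for Rgs4, 0.46 for Rgs8, 0.30 for Rgs14, 0.26 for Rgs7 and −0.55 for Rgs10. Over 12 mice it was 0.73 for Rgs16, 0.64 for Rgs7, 0.34 for Rgs14, 0.07 for Rgs10, 0.07 for Rgs4 and 0.04 for Rgs8. The sign for Rgs10 thus differed between the 2 sets of mice. The gene most like each of the others over 10 mice was Ccnl1 for Rgs4 (0.96), Ubl7 for Rgs8 (0.94), Marcks for Rgs16 (0.93), Vmn2r83 for Rgs7 (0.93), Gp6 for Rgs10 (0.93) and Btbd9 for Rgs14 (0.91). Over 12 mice Ubl7 was again the gene most like Rgs8 (0.95), and for the other 5 the leading gene was another one, such as Cnot2 for Rgs4 (0.99).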

How the data were processed

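RNA of both hemispheres of 12 mice was measured on 24 Affymetrix whole-transcript arrays. The authors deposited 1 log2 signal per probe set and array. Per the submitters' processing notes, these came from Affymetrix Expression Console. The log2 scale was read from the range of the values. Folds rest on that inference. How background was corrected and signals were normalized, the tool's version and the genome build were not given in the sources used here. Of 29129 probe sets 6923 array controls were left out, and all 22206 others were tested with no filter on signal. Of these 19572 named 1 gene and 2634 were unnamed here, and 55 genes had more than 1 probe set, of which the one of highest mean was used.

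Differences were fitted with limma 3.58.1 (lmFit and eBayes, R 4.3.3), on all 24 arrays with mouse as a fixed block for comparisons of sides and on the 12 arrays of 1 side between surgeries. Adjusted p-values are Benjamini-Hochberg values across the 22206 probe sets of a comparison, with a threshold of 0.05. Errors are standard errors of the limma fit unless SD is written, and the number of arrays limits their precision. Both hemispheres come from 1 animal per the titles, and without the 4 unlike arrays same-mouse deviations from the group means correlated at 0.11 to 0.31 (median for different mice −0.02). Mice are separate animals, and equal numbers across surgeries pair none.

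The members and gene lists were chosen with earlier results of these data known. Named were the 7 members, any other RGS-domain gene, from each further list up to 3 called genes of greatest change or the 2 of smallest p, and the genes most and least like a member. Background was the 95th percentile of 5222 negative control probe sets per array, a criterion of description that no test uses. Promoters came from RefSeq (GRCm38.p6), and all 19572 gene identifiers were found in the RefSeq gene table, used for names and neighbours. The limma fits were checked on simulated arrays with seeded changes, where the rule for passing was on mean estimates only. No simulated array stood apart as a whole, so the check does not cover the 4 unlike arrays. Alternatives were the block, the 4 arrays, each mouse in turn, array weights, scaling, dim probe sets, eBayes settings and probe choice. Figures were drawn with matplotlib 3.10.9 (Python 3.11.15).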

Additional observations from a re-analysis of the deposited data

Results flagged for a closer look

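Over all arrays, in groups of 4 or 8 samples, 19 of 42 sets of member values held 1 value whose gap to its nearest neighbour passed the 95% limit for a single far value, where chance gives about 1 in 20. All 19 belong to MCAO mouse 3 or sham mouse 1, whose arrays stood apart as a whole, and 0 of the 21 sets of 7 samples left without those arrays held one.

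In MCAO mouse 3 the far signals were 7.07 and 4.26 for Rgs2, 7.47 and 5.55 for Rgs4, 4.50 and 3.51 for Rgs7, 4.00 and 4.90 for Rgs10, and 4.61 and 3.63 for Rgs16, ipsilateral and contralateral in that order. Its side difference of Rgs7 was 1.00. In sham mouse 1 they were the ipsilateral signals of Rgs2 (4.64) and Rgs7 (3.58) and the contralateral signals of Rgs4 (4.54), Rgs7 (4.02) and Rgs16 (3.81). The side differences of Rgs4 (3.16), Rgs7 (−0.45) and Rgs10 (−2.95) in that mouse were far from those of the other sham mice as well.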

How the results depend on the processing

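Leaving out the 4 unlike arrays raised the count of probe sets called in the MCAO side comparison from 19 to 30 and that between ipsilateral hemispheres from 1 to 33, and the second then held 1 member, Rgs2, whose values chose it, so this is no test of it. Array weights gave 64 and 50 and the same 1 member, and 1 call in the contralateral comparison in place of 0. Quantile normalization left 6 side calls after MCAO and 0 members, where Rgs2 had been the 1 member, though its side difference was 1.85 there. Rgs2 was chosen on this contrast, so whether it was called in any setting is no test of it. With no replicate block, so ignoring that hemispheres are paired within mice, there were 0 side calls and 0 members called, with Rgs2 at 1.64 as before, and with no replicate block and without the 4 arrays, a setting chosen after seeing the data, there were 29. Leaving out single mice gave 10 to 23 side calls after MCAO, with 10 without MCAO mouse 8, 0 to 1 in sham mice, with 1 without sham mouse 3, and 0 to 17 between ipsilateral hemispheres, with 17 without MCAO mouse 3. Signs turned for members that had not passed the test. Without the 4 arrays these were Rgs10 in the MCAO side comparison (0.054), the sham side comparison (0.27) and between ipsilateral hemispheres (−0.48), the difference of side differences of Rgs4 (0.29), Rgs8 (0.095), Rgs10 (−0.22) and Rgs14 (−0.011), and contralaterally Rgs7 (−0.08) and Rgs8 (−0.001). With no replicate block and without the 4 arrays the side values were the same. With array weights Rgs10 turned to 0.068, 0.17 and −0.30 in the first 3, the difference of side differences of Rgs4 to 0.16, Rgs8 to 0.06 and Rgs10 to −0.10, and contralaterally Rgs7 to −0.067 and Rgs8 to −0.016. Over single left-out mice the MCAO side value of Rgs10 ran from −0.15 to 0.054 and its sham side value from −0.91 to 0.27. The difference of side differences ran from −0.63 to 0.48 for Rgs4, −0.29 to 0.14 for Rgs8, −0.34 to 0.84 for Rgs10 and −0.047 to 0.44 for Rgs14. Between ipsilateral hemispheres the ranges were −0.43 to 1.26 for Rgs7, −0.018 to 0.36 for Rgs8, −0.81 to 1.07 for Rgs10 and −0.12 to 0.028 for Rgs14. Contralaterally they were −0.19 to 1.04 for Rgs2, −0.27 to 1.38 for Rgs4, −0.69 to 1.04 for Rgs7, −0.16 to 0.59 for Rgs8 and −0.47 to 0.23 for Rgs10. The cause of these changes was not tested. Signals of Rgs16 in sham mice and of Rgs1 are limited by background, and those of Rgs14 lie near it.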
